A study of Mus musculus with 70 samples.

Results

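The mitochondrial genome of the mouse carries 37 genes, and all 37 had a row in the count table of 52636 genes. They were chosen by position, as the genes on the mitochondrial chromosome, whose symbols begin with mt-. No measured value was used in the choice. They are 2 rRNA genes, 22 tRNA genes and 13 protein genes. The libraries came from leukocytes of young adult C57BL/6J mice, which carried no transgene and went through chronic social defeat stress (CSDS). In CSDS a mouse is subordinated by a larger aggressive CD-1 mouse on 10 consecutive days. The unstressed controls (CON) were compared with defeated mice that avoided a social target afterwards (susceptible, SUS) and with defeated mice that did not (resilient, RES). SUS and RES mice thus shared the same stress and were separated by behaviour. Ly6Chigh monocytes (the inflammatory monocytes of blood), Ly6Clow monocytes (which patrol the vessel wall), B cells and T cells were sorted by surface markers.

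Mitochondrial DNA is transcribed from both strands into long precursors, and the tRNAs lie between most of the other genes and are cut out to release rRNAs and mRNAs. The 2 rRNAs build the mitochondrial ribosome, which translates only the mitochondrial mRNAs. The 13 proteins are core subunits of oxidative phosphorylation (OXPHOS): 7 belong to complex I (NADH dehydrogenase), 1 to complex III (cytochrome b), 3 to complex IV (cytochrome c oxidase) and 2 to complex V (ATP synthase). All other OXPHOS subunits are nuclear, so each of these complexes draws on both genomes. Monocytes are known for a mainly glycolytic metabolism when activated, while resting lymphocytes rely on oxidative phosphorylation.

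On the reference chromosome 28 of the genes lie on the plus strand and 9 on the minus strand, the latter being 8 tRNA genes and mt-Nd6. The genes are 59 to 1824 bases long. Several overlap: mt-Atp8 shares 43 bases with mt-Atp6, mt-Nd4l shares 7 with mt-Nd4, and mt-Nd5 shares 14 with mt-Nd6 on the opposite strand. The tRNA genes with the 3 highest mean counts and the tRNA gene without any count are shown because they mark the most and the least detected tRNAs, with the anticodon in capitals (GRCm38).
mt-Tp, proline, chrM:15356-15422, minus strand: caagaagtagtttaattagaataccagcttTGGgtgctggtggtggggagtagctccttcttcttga
mt-Tv, valine, chrM:1025-1093, plus strand: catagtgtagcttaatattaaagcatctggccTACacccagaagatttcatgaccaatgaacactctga
mt-Tg, glycine, chrM:9391-9458, plus strand: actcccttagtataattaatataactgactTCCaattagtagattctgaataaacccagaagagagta
mt-Ts2, serine, chrM:11613-11671, plus strand: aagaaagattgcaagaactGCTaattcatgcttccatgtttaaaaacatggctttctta

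mt-Atp8, a small membrane subunit of ATP synthase, is shown whole because its reads cannot all be assigned. The capitals mark the last 43 bases, which are also the first 43 of mt-Atp6.
mt-Atp8, chrM:7766-7969, plus strand: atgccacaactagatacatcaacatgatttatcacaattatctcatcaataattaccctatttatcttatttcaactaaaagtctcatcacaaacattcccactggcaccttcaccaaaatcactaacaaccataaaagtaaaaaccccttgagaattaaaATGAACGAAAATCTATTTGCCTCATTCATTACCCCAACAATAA

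Of 70 libraries 68 were used. Library 52 (labelled B cells, RES) held T cell markers at 1651 CPM (counts per 1e6 counts) and library 70 (labelled T cells, RES) held them at 13.0 CPM, so both went against their labels and were left out. Each group had 6 libraries except Ly6Clow CON with 4, B cell RES with 5 and T cell RES with 5. The libraries held 19769835 to 67038231 counts. The summed markers of each labelled cell type were higher in every library of that type than in any other library used, for instance 6091 to 10077 CPM for the Ly6Chigh list against 199.6 to 1188 CPM elsewhere. The labels give brain as the source and the study's methods give trunk blood. The labels name no mouse, so whether libraries of different cell types came from the same animals is not known here, and p-values measure the spread between libraries. Pairs of libraries in a group (171) were never identical, and the smallest chi-square per degree of freedom between them was 24.4. A pair of nuclear genes, Gm23935 and Gm26917, took 0.395% to 41.0% of all counts, and more in lymphocytes than in monocytes.

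The mitochondrial genes took between 3.66% and 18.4% of all counts in a library. Ly6Clow monocytes had the lowest mean share. In the 4 Ly6Clow CON libraries the share was 5.37%, 4.98%, 3.66% and 4.39%, a mean of 4.60% ± 0.746 (SD, n = 4). In Ly6Chigh CON it ran from 8.49% through a median of 10.07% to 11.4%, with a mean of 9.97% ± 1.25 (SD, n = 6). These groups did not overlap, and the Ly6Chigh mean was 2.17 times the Ly6Clow mean. In T cell CON the share ran from 9.53% (median 12.2%) to 13.9%, with a mean of 11.8% ± 1.63 (SD, n = 6), and no T cell library overlapped a Ly6Clow library. B cell CON had the widest spread, from 6.18% through 8.85% to 18.4%, with a mean of 10.2% ± 4.71 (SD, n = 6). The value of 18.4% belonged to library 38, and the other 5 B cell CON libraries had a mean of 8.50% ± 2.69 (SD). The order of the means was T cells, B cells, Ly6Chigh and Ly6Clow monocytes with library 38 included, and T cells, Ly6Chigh, B cells and Ly6Clow without it. Among the first 3 the libraries overlapped. A share is a part of a fixed total, and in these sorted populations fewer cells with much mitochondrial RNA and less mitochondrial RNA per cell cannot be told apart.

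Stress groups overlapped in this share within every cell type. In Ly6Chigh monocytes the means were 9.97% in CON, 9.82% ± 2.33 (SD, n = 6) in SUS and 8.96% ± 1.80 (SD, n = 6) in RES. In Ly6Clow monocytes SUS had 5.02% ± 0.332 (SD, n = 6) and RES 5.10% ± 0.901 (SD, n = 6). B cells had 8.09% ± 2.67 (SD, n = 6) in SUS and 8.36% ± 2.79 (SD, n = 5) in RES. T cells had 10.7% ± 0.952 (SD, n = 6) and 10.7% ± 1.73 (SD, n = 5). All differences from CON were smaller than the spread in at least the wider of the groups compared. Summed shares were described without a test.

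**Figure D1:**
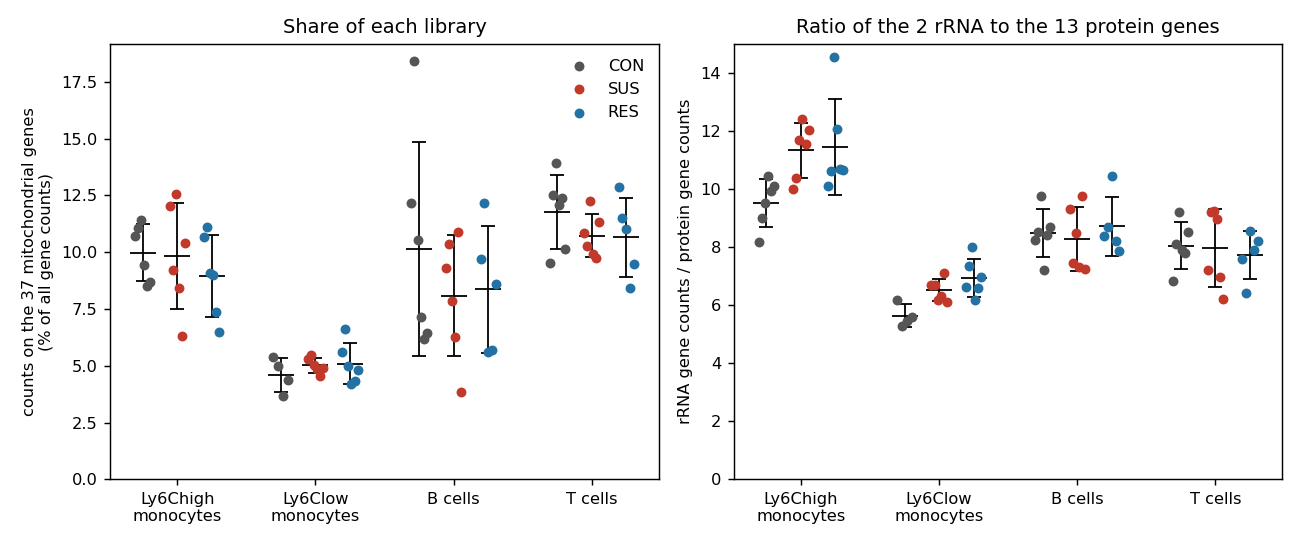
Left, percent of all counts on the 37 mitochondrial genes in each of 68 libraries, by cell type and condition. Right, the ratio of mitochondrial rRNA counts to mitochondrial protein gene counts in the same libraries. Points are libraries and bars are mean ± SD. The Ly6Clow libraries lie low in both panels, at 3.66% to 6.61% and at ratios of 5.30 to 8.00, and overlap lymphocyte libraries in each (B cell shares from 3.86%, T cell ratios from 6.21). A B cell CON library lies at 18.4%.

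The share depended on what else was in the library. Gm23935 and Gm26917 together took 3.41% ± 2.85 of counts in Ly6Chigh CON, 3.47% ± 5.01 in Ly6Clow CON, 24.5% ± 10.4 in B cell CON and 17.7% ± 10.0 in T cell CON (SD, n = 6, 4, 6 and 6). With both genes taken out of the total, the mitochondrial share was 10.3% ± 1.41 in Ly6Chigh, 4.75% ± 0.574 in Ly6Clow, 13.4% ± 6.21 in B cells and 14.3% ± 1.00 in T cells of CON mice. All 6 Ly6Chigh CON libraries then lay below all T cell CON libraries. The difference between Ly6Chigh and T cells was −3.94 percentage points in place of −1.79, and that between Ly6Clow and T cells −9.53 in place of −7.15.

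The 2 rRNA genes held 84.1% to 93.6% of the mitochondrial counts. The library kit depletes rRNA cDNA, and how far it acts on mouse mitochondrial rRNA was not given in the sources used here. These may thus be counts left after depletion, and the level of these rRNAs in the cells was not measured. In CON mice rRNA took 9.01% ± 1.08 of all counts in Ly6Chigh, 3.91% ± 0.656 in Ly6Clow, 9.08% ± 4.23 in B cells and 10.5% ± 1.53 in T cells. The 13 protein genes took 0.956% ± 0.180, 0.692% ± 0.0983, 1.07% ± 0.488 and 1.30% ± 0.131 in the same order, and 0.467% to 1.93% over all libraries. The 22 tRNA genes took 0.000337% to 0.00336%.

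Ly6Clow monocytes therefore had fewer rRNA counts per protein gene count. The ratio was 5.64 ± 0.395 (SD, n = 4) in Ly6Clow CON, with libraries at 6.20, 5.30, 5.46 and 5.60. It was 9.54 ± 0.833 (SD, n = 6) in Ly6Chigh CON, 8.49 in B cell CON and 8.07 in T cell CON, and no library of these groups overlapped Ly6Clow CON. In both monocyte types the ratio was higher on average in stressed mice. Ly6Chigh SUS ran from 10.0 through 11.6 to 12.4 and RES from 10.1 through 10.7 to 14.6, against 8.18 through 9.73 to 10.5 in CON. That is, 4 of 6 SUS and 5 of 6 RES libraries lay above all Ly6Chigh CON libraries. Ly6Clow SUS had 6.52 ± 0.378 and RES 6.96 ± 0.652 (SD, n = 6 each), again with 4 of 6 and 5 of 6 libraries above all CON libraries. The groups still overlapped. In B cells the SUS and RES means were 8.28 and 8.74, and in T cells 7.98 and 7.74. As a ratio of sums over the genes chosen, it was given no p.

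The single genes differed in level far more than the cell types did. Levels between genes are given as CPM per kilobase of gene (TMM-scaled), as means over the 68 libraries. mt-Rnr2, the rRNA of the large ribosomal subunit (chrM:1094-2675), had 36393 and mt-Rnr1, that of the small subunit (chrM:70-1024), had 22807. The highest mRNA was mt-Co1, the catalytic subunit of complex IV, at 2144. Next were mt-Cytb, the only member of complex III, with 1006 and mt-Nd1, a membrane subunit of complex I, with 981. The remaining complex I genes lay lower, with mt-Nd5 at 602, mt-Nd4 at 472, mt-Nd2 at 425, mt-Nd6 at 422, mt-Nd4l at 221 and mt-Nd3 at 153. mt-Atp6, the proton-channel subunit of ATP synthase, had 745 and mt-Atp8 had 418. With the counts of its near-identical nuclear copy added, mt-Atp6 had 1342, 1.80 times its own level and above mt-Cytb and mt-Nd1, so its rank depends on how reads were split between the 2 genomes. Of complex IV, mt-Co2 and mt-Co3 had 596 and 491, and 730 and 615 with their copies. Genes of the same precursor strand and of the same complex therefore did not share a level. In the order of levels mt-Co3 stood at rank 9 in Ly6Chigh monocytes, B cells and T cells and at rank 13 in Ly6Clow monocytes.

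**Figure D2:**
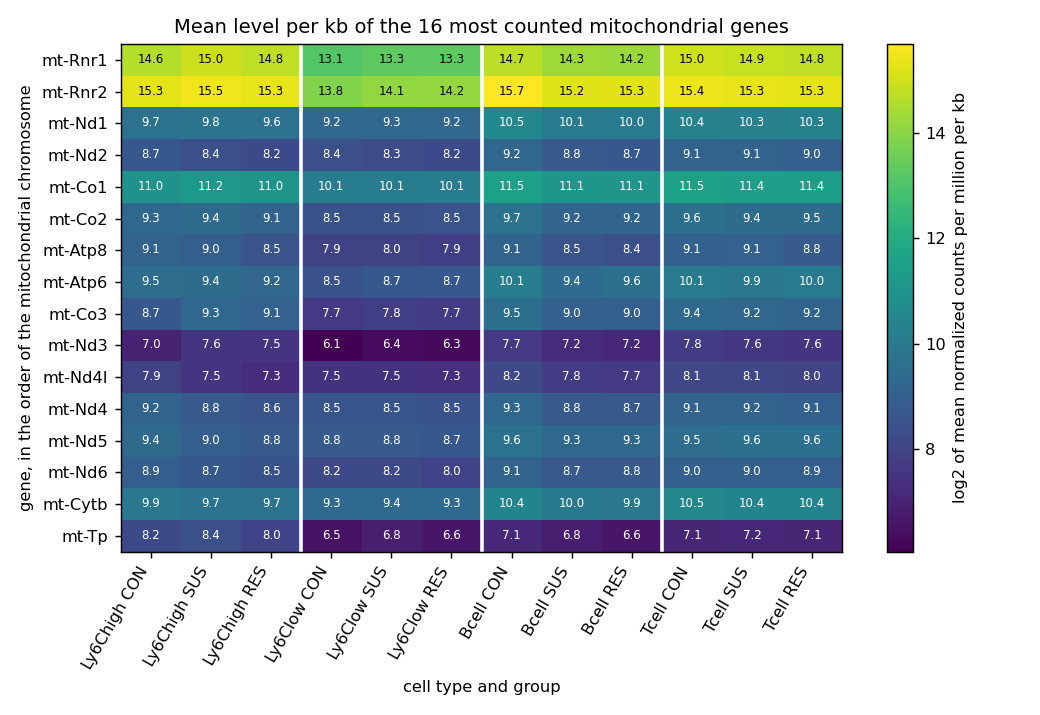
Mean level of 16 mitochondrial genes (log2 of CPM per kilobase, colour scale) in the 12 groups. The rRNA genes stand at the top of the range, mt-Co1 leads the protein genes, and the Ly6Clow columns are the darkest (lowest) for most genes.

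Almost all tRNA counts fell on mt-Tp. Of 29456 tRNA counts in 68 libraries, 28384 (96.4%) were on mt-Tp, and the other 21 tRNA genes held 1072 in all. mt-Tv, between the rRNA genes, held a mean of 3.97 counts per library, at most 45, and was at 0 in 19 libraries. mt-Tg, between mt-Co3 and mt-Nd3, held a mean of 2.15, at most 18, and was at 0 in 27 libraries. Of those 21 genes, 15 were at 0 in most libraries. mt-Ts2 was at 0 in all 68 libraries, which allows up to 3 counts, or 0.0448 to 0.152 CPM, in a library by counting error alone. RNA was purified on silica columns, which retain short RNA poorly, and the part of this step in the tRNA counts was not tested. mt-Tp lies on the minus strand, and whether reads were counted by strand was not stated, so its reads cannot be told apart from those of the precursor of the other strand.

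mt-Tp was highest in Ly6Chigh monocytes. In CON it ran from 12.8 through 19.5 to 27.4 CPM there (19.7 ± 5.67, SD, n = 6), and the 4 Ly6Clow CON libraries had 5.38, 5.22, 6.35 and 8.07 CPM. B cell CON ran from 6.24 through 7.08 to 19.2 CPM and T cell CON from 5.85 through 8.87 to 11.5 CPM. The Ly6Chigh CON range lay above those of Ly6Clow and T cells, and met that of B cells only through the library at 19.2 CPM. Per kilobase mt-Tp ranked 14 of the genes in Ly6Chigh monocytes and 16 in B and T cells, close to the lowest mRNAs.

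Which cell types differ in mitochondrial RNA was tested gene by gene between CON groups, in a fit of all 12 groups over 24248 genes, with 17 mitochondrial genes tested (2 rRNA, 13 protein, mt-Tp and mt-Tv). The other 20 tRNA genes were too low to be tested. Calls required an edgeR adjusted p (Benjamini-Hochberg) under 0.05 together with a log2 fold change beyond 1. Fold changes are relative to TMM-scaled library sizes, in which the median of all genes moved by at most 0.06 in CON pairs.

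Ly6Clow monocytes stood below the other cell types. For mt-Rnr2 the 4 Ly6Clow CON libraries had 26820, 24503, 20099 and 21993 CPM, and Ly6Chigh CON ran from 54045 through 60226 to 73647 CPM, without overlap. mt-Rnr2 was higher in Ly6Chigh by 1.42 on the log2 scale (SE 0.21, edgeR adjusted p = 3.03e-07) and mt-Rnr1 by 1.51 (SE 0.25, adjusted p = 3.1e-06). mt-Co3, a core subunit of complex IV, had 174, 178, 129 and 156 CPM in Ly6Clow CON, all below the Ly6Chigh CON range of 242 through 327 to 403 CPM, and was higher by 1.03 (SE 0.22, adjusted p = 0.000237). Both ATP synthase genes were also called, mt-Atp6 at 1.03 (SE 0.25, adjusted p = 0.0019) and mt-Atp8 at 1.21 (SE 0.35, adjusted p = 0.0102). mt-Tp had the largest difference, 1.66 (SE 0.35, adjusted p = 0.000224). In all, 6 of 17 mitochondrial genes were called higher in Ly6Chigh, where 4.08% of all genes tested were called higher. By adjusted p alone 9 passed, against 7.96% of all genes, adding mt-Co1 (0.89), mt-Co2 (0.80) and mt-Nd3 (0.92).

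Of the 7 complex I genes only mt-Nd3 passed, by adjusted p alone. mt-Nd1 (0.45), mt-Nd2 (0.33), mt-Nd4l (0.45), mt-Nd4 (0.60), mt-Nd5 (0.56) and mt-Nd6 (0.74) did not pass, nor did mt-Cytb (0.56). Their log2 differences were all positive, with a median over the 17 genes of 0.89 and over all genes of −0.01. Of the genes that did not pass, only mt-Nd5 had libraries that did not overlap. It had 924, 870, 767 and 742 CPM in Ly6Clow CON and 1016 to 1476 CPM in Ly6Chigh CON. Among the 17 genes tested 9 were without overlap, and the share of all genes without overlap was not counted.

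Against the lymphocytes Ly6Clow monocytes were lower in most of the genes. In Ly6Clow CON 10 of 17 genes were called lower than in B cells, where 11.8% of all genes were called lower, and 15 passed by adjusted p alone (17.4% of all genes). The largest differences were mt-Co3 at −1.87, mt-Rnr2 at −1.83, mt-Atp6 at −1.64, mt-Rnr1 and mt-Nd3 at −1.61 each, mt-Co1 at −1.41 and mt-Nd1 at −1.31, followed by mt-Atp8, mt-Co2 and mt-Cytb. Against T cells the same 10 genes were called lower, where 11.9% of all genes were, and 14 passed by adjusted p alone (16.2% of all genes). There mt-Rnr1 stood at −1.89, mt-Nd3 at −1.73, mt-Co3 at −1.68, mt-Atp6 at −1.58, mt-Rnr2 at −1.57 and mt-Co1 at −1.45. mt-Co1 ran from 4266 through 4636 to 4830 CPM in T cell CON and had 1770, 1899, 1464 and 1590 CPM in Ly6Clow CON. The 2 comparisons share the Ly6Clow libraries. The B cell comparison rested in part on library 38, which had the highest value of the group in both rRNA genes, all 13 protein genes and mt-Tp, and without it 5 genes were called lower (mt-Co3 at −1.51, mt-Rnr2 at −1.40, mt-Nd3 at −1.32, mt-Rnr1 at −1.21 and mt-Co1 at −1.04).

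Between Ly6Chigh monocytes and lymphocytes 1 gene was called, mt-Tp, which was higher in Ly6Chigh than in B cells by 1.07 (SE 0.30, edgeR adjusted p = 0.00222) and than in T cells by 1.13 (SE 0.30, adjusted p = 0.00132). The shares of all genes called higher in Ly6Chigh were 17.2% and 15.9%. Several protein genes were lower in Ly6Chigh by adjusted p, all by less than 1 on the log2 scale. Against B cells these were mt-Nd1 (−0.87), mt-Co3 (−0.84), mt-Nd3 (−0.68), mt-Atp6 (−0.62), mt-Co1 (−0.52) and mt-Nd2 (−0.50), where 21.5% of all genes passed in that direction. Against T cells they were mt-Nd3 (−0.81), mt-Nd1 (−0.70), mt-Co3 (−0.65), mt-Cytb (−0.59), mt-Co1 (−0.56) and mt-Atp6 (−0.55), where 22.0% did. The rRNA genes did not pass against either lymphocyte. The B cell values rested on library 38. Without it mt-Nd1 stood at −0.37, mt-Co3 at −0.48, mt-Nd3 at −0.40, mt-Co1 at −0.15, mt-Nd2 at −0.17 and mt-Atp6 at 0.05, so that mt-Atp6 changed sign and only mt-Nd1, mt-Co3 and mt-Tp passed by adjusted p. The median over the 17 genes went from −0.39, with 3 positive, to 0.05, with 11 positive. The call of mt-Tp against B cells was lost when Ly6Chigh CON library 4 or B cell CON library 47 or 50 was left out.

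The levels of single genes overlapped between B and T cells. No gene was called by edgeR (0 at an unadjusted p under 0.05) or by DESeq2, where 20.0% of all genes were called in either direction. The nearest were mt-Rnr1 at −0.28 and mt-Rnr2 at 0.26. By adjusted p alone 0 mitochondrial genes and 7019 of all 24248 genes passed with library 38 included. Without library 38, 4 of 17 mitochondrial genes passed by adjusted p, and the count over all genes in that fit is not given here. Among the 4 was mt-Rnr1, lower in B cells by 0.68 (SE 0.18, edgeR adjusted p = 0.00259), and none reached a log2 fold change of 1.

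**Figure D3:**
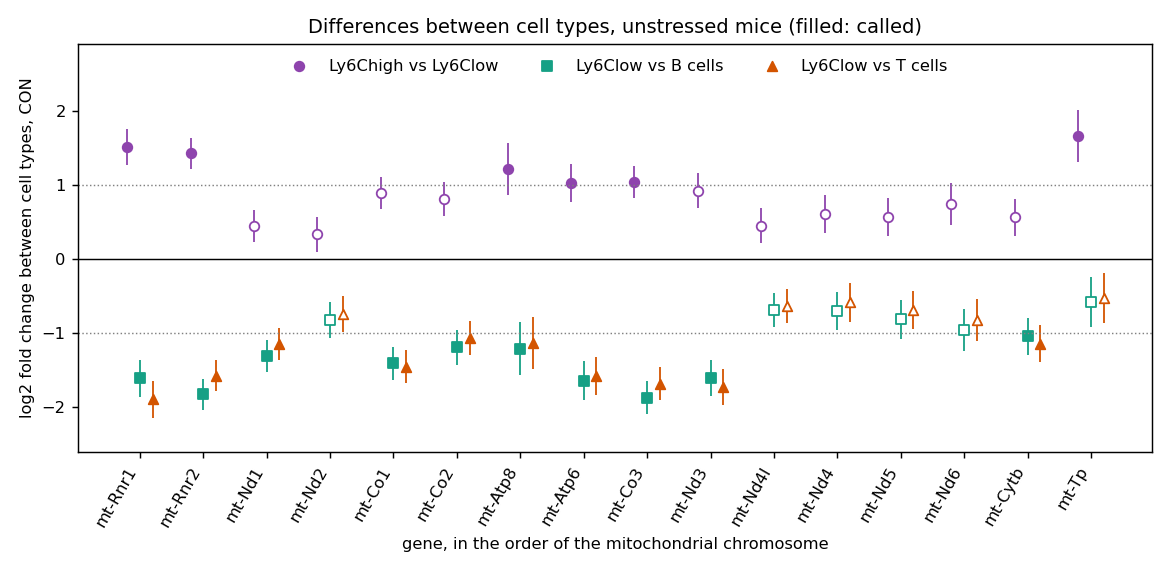
Log2 fold change ± SE (edgeR) of the mitochondrial rRNA and protein genes and mt-Tp between CON groups, for Ly6Chigh vs. Ly6Clow, Ly6Clow vs. B cells and Ly6Clow vs. T cells. Filled points were called and dotted lines mark ±1. Ly6Clow is the lower group for every gene in each comparison, with the rRNA genes, mt-Co3 and mt-Tp far from 0 against Ly6Chigh.

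The same pairs in stressed mice gave related counts. Ly6Chigh exceeded Ly6Clow in 7 genes in SUS (9.08% of all genes called higher) and 5 in RES (7.14%), mt-Rnr1, mt-Rnr2, mt-Co3, mt-Nd3 and mt-Tp in both. mt-Co3 stood at 1.46 in SUS and 1.37 in RES. mt-Tp was the only gene called higher in Ly6Chigh than in B cells in SUS (1.59, 15.8% of all genes) and RES (1.33, 14.7%), and than in T cells in SUS (1.23, 16.4%). In RES no gene was called higher than in T cells by edgeR (15.0% of all genes), and 0 were called by DESeq2. At an unadjusted p under 0.05 were 8 mitochondrial genes and 12757 of all 24248 genes. Ly6Clow lay below B cells in 3 genes in SUS (12.8%) and 2 in RES (11.1%), and below T cells in 8 genes in each (13.5% and 12.5%). mt-Rnr2 and mt-Co3 were among these in every case. B against T cells gave 0 calls by edgeR in SUS (18.6%) and RES (17.1%), and 0 calls by DESeq2. There 3 and 2 mitochondrial genes had an unadjusted p under 0.05, as did 8850 and 8542 of all 24248 genes. In pairs with Ly6Chigh of stressed mice the median of all genes was shifted by −0.07 to −0.23.

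Ratios within a library do not depend on its total. The mean log2 ratio of mt-Rnr2 to mt-Rnr1 was 1.70 in B cell CON, 1.49 in Ly6Clow, 1.43 in Ly6Chigh and 1.17 in T cells. All 6 B cell libraries lay above all T cell libraries, a difference of 0.53 (exact permutation test, two-sided, p = 0.00216, adjusted p = 0.0130 over 18 tests). Ly6Clow lay above T cells by 0.32 (exact adjusted p = 0.0245) and below B cells by 0.21 (exact adjusted p = 0.0429). Leaving out any 1 of the 4 Ly6Clow CON libraries lifted adjusted p-values to at most 0.0612, since fewer permutations remained. Ly6Chigh lay between, with an adjusted p of 0.0818 against either lymphocyte (exact permutation test). For 6 against 6 libraries the smallest p these permutations can give is 0.00216.

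The ratio of an mRNA to an rRNA set the 2 monocyte types apart. The mean log2 ratio of mt-Nd1 to mt-Rnr2 was −6.33 in Ly6Chigh CON and −5.35 in Ly6Clow CON, with B cells at −5.90 and T cells at −5.78 between them. Ly6Chigh was lower than Ly6Clow by 0.99 (exact permutation test, adjusted p = 0.0245), than B cells by 0.43 (exact adjusted p = 0.0130) and than T cells by 0.56 (exact adjusted p = 0.0130). Ly6Clow was higher than B cells by 0.56 and than T cells by 0.43 (exact adjusted p = 0.0245 each), and B and T cells differed by −0.12 (exact adjusted p = 0.339). The comparisons with Ly6Clow rest on 4 libraries of that group, and leaving out any of them lifted adjusted p-values as given above. The mt-Rnr2 counts may be those left after rRNA depletion, and the part of depletion in this ratio was not tested. The log2 ratio of mt-Nd6, the only minus-strand mRNA, to mt-Nd5 on the plus strand was −2.34, −2.47, −2.28 and −2.33 in Ly6Chigh, Ly6Clow, B and T cells, and no pair passed (smallest exact adjusted p = 0.203). The unstated strand setting limits this ratio, since the genes overlap at their ends.

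Whether CSDS changed the mitochondrial genes was tested within each cell type by comparing SUS and RES mice each with CON mice and with each other, with 16 mitochondrial genes tested. SUS vs. CON and RES vs. CON share the CON libraries. No mitochondrial gene was called by edgeR or DESeq2 in any of the 12 comparisons, and none passed an adjusted p of 0.05 by edgeR. In Ly6Chigh monocytes 4, 5 and 0 of the 16 genes had an unadjusted p under 0.05 when SUS was compared with CON, RES with CON and SUS with RES. Of all 16955 genes, 4498, 3599 and 620 had such a p there, and 3.45%, 0.997% and 0% were called. The counts were 2, 2 and 0 in Ly6Clow monocytes (0.0871%, 0.0154% and 0% of all genes called), where 1857, 1888 and 740 of all 19521 genes had such a p. They were 2, 4 and 0 in B cells (0.00568%, 0% and 0% called), where 602, 560 and 240 of all 17620 genes did. In T cells they were 0, 1 and 0 (0.0265%, 0% and 0% called), where 906, 775 and 451 of all 18860 genes did.

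In Ly6Chigh monocytes the 16 genes did not move as a block. mt-Co3 ran from 242 through 327 to 403 CPM in CON, from 327 through 448 to 756 CPM in SUS and from 318 through 387 to 583 CPM in RES. Of the SUS libraries 4 of 6 lay above all CON libraries, and the groups overlapped. The log2 difference was 0.55 in SUS (SE 0.19, edgeR adjusted p = 0.053) and 0.38 in RES. mt-Nd3, its neighbour on the chromosome beyond mt-Tg, ran from 29.9 through 43.2 to 60.0 CPM in CON, from 44.2 through 61.9 to 104 CPM in SUS and from 47.4 through 61.7 to 77.6 CPM in RES. Its log2 difference was 0.55 in SUS (SE 0.20, adjusted p = 0.0799) and 0.52 in RES (SE 0.20, adjusted p = 0.135).

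Several other complex I genes had lower means in stressed mice. mt-Nd5, a proton-pumping subunit, ran from 1016 through 1188 to 1476 CPM in CON, from 493 through 886 to 1362 CPM in SUS and from 601 through 656 to 1131 CPM in RES. Groups overlapped, with log2 differences of −0.46 (SE 0.21) in SUS and −0.62 (SE 0.21, edgeR adjusted p = 0.083) in RES. mt-Nd4l ran from 49.5 through 75.0 to 87.3 CPM in CON, from 40.7 through 52.7 to 77.6 CPM in SUS and from 35.7 through 40.4 to 68.7 CPM in RES, and its log2 differences were −0.42 and −0.62 (SE 0.20 each, adjusted p = 0.171 and 0.0653). mt-Nd4 stood at −0.43 and −0.60 and mt-Nd2 at −0.37 and −0.52 in SUS and RES. By adjusted p alone a few genes passed under other settings, with no call in any. In RES mt-Nd5 (adjusted p = 0.0347) and mt-Nd4l (adjusted p = 0.0227) passed by DESeq2. By edgeR mt-Nd2, mt-Nd5 and mt-Nd4l passed in RES without library 3 (adjusted p = 0.0368, 0.033 and 0.0221). Without library 6 mt-Nd5 and mt-Nd4l passed (edgeR adjusted p = 0.0452 and 0.0444). In SUS mt-Co3 passed by edgeR without library 14 (adjusted p = 0.0463) or 17 (adjusted p = 0.0244), and mt-Nd3 without library 17 (adjusted p = 0.0477).

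The other genes lay nearer to 0. mt-Rnr1 had 0.32 and mt-Rnr2 0.17 in SUS, and 0.16 and 0.04 in RES. mt-Atp8 (−0.20 and −0.62), mt-Nd6 (−0.23 and −0.44), mt-Cytb (−0.21 and −0.24) and mt-Atp6 (−0.09 and −0.28) were negative in both, mt-Nd1 (0.05 and −0.05) and mt-Co2 (0.06 and −0.17) changed sign, and mt-Co1 had 0.18 and 0.04. Over the 16 genes the median was −0.02 in SUS and −0.24 in RES, with 8 and 5 genes positive, beside medians of −0.05 and −0.03 over all genes. In SUS vs. RES all 16 differences were positive, between 0.03 and 0.42 with a median of 0.16, and all genes had a median of 0.01.

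**Figure D4:**
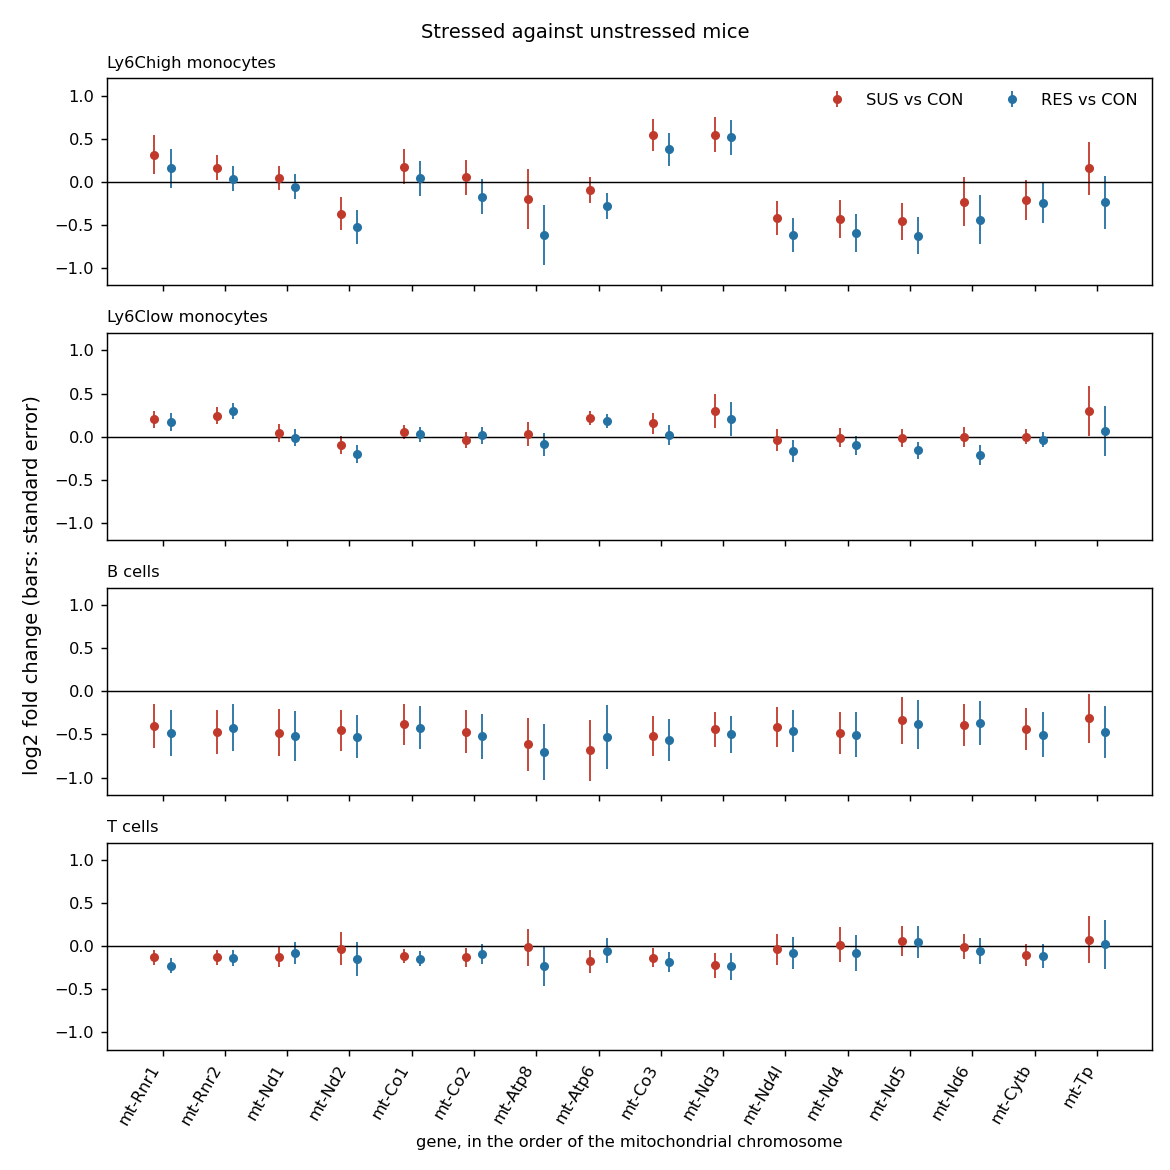
Log2 fold change ± SE (edgeR) of 16 mitochondrial genes in SUS vs. CON and RES vs. CON mice, in a panel per cell type. No gene was called. mt-Co3 and mt-Nd3 lie above 0 and mt-Nd2, mt-Nd4l, mt-Nd4 and mt-Nd5 below 0 in Ly6Chigh monocytes, and all 16 genes lie below 0 in B cells.

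Red-cell, neutrophil and platelet transcripts had higher means in stressed mice in the same Ly6Chigh libraries. The summed red-cell markers (hemoglobins and others, 8 genes) ran from 374 to 1157 CPM in CON libraries, against 928 to 7201 CPM in SUS and 946 to 3602 CPM in RES. The neutrophil markers (9 genes) ran from 16.0 to 587 CPM, 42.8 to 1542 CPM and 19.5 to 806 CPM, and the platelet markers (8 genes) had means of 10.1, 22.2 and 15.9 CPM. With the red-cell level as a covariate, mt-Co3 in SUS stood at 0.45 (SE 0.25, edgeR adjusted p = 0.851), mt-Nd3 at 0.47 (SE 0.28, adjusted p = 0.866) and mt-Nd5 at −0.20 (SE 0.27, adjusted p = 0.996), and the median of the 13 protein genes in SUS went from −0.20 to 0.02. Over all 16955 genes tested, calls went from 585 to 1 in SUS and from 169 to 0 in RES with this covariate. In the red-cell markers 5 of 6 SUS and 5 of 6 RES libraries lay above all CON libraries, so the covariate is hard to separate from stress. The part of neutrophil and platelet RNA in these values was not tested.

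In Ly6Clow monocytes the genes with a low unadjusted p were mt-Rnr2 and mt-Atp6. mt-Rnr2 had 26820, 24503, 20099 and 21993 CPM in CON, while it ran from 24877 through 28233 to 29620 CPM in SUS and 24709 through 28551 to 37473 CPM in RES. Of the SUS libraries 5 of 6 and of the RES libraries 4 of 6 lay above all CON libraries, and the log2 differences were 0.24 (SE 0.09, edgeR adjusted p = 0.35) and 0.30 (SE 0.09, adjusted p = 0.257). mt-Atp6 stood at 0.22 and 0.18. The median over the 16 genes was 0.04 in SUS and 0.00 in RES. The red-cell markers had a mean of 845 CPM in CON, below the means of 1619 CPM in SUS and 1827 CPM in RES. The platelet markers ran from 14.3 to 19.3 CPM in CON, 11.8 to 51.8 CPM in SUS and 19.6 to 26.6 CPM in RES, so that RES and CON did not overlap. The neutrophil markers had means of 15.7, 37.9 and 18.5 CPM. The part of these transcripts in the mitochondrial values was not tested.

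In B cells all 16 genes had lower means in stressed mice, by 0.31 to 0.68 (median −0.44) in SUS and by 0.37 to 0.70 (median −0.50) in RES, and no adjusted p was under 0.999 (edgeR). This rested on library 38. Without it the medians were −0.03 in SUS and −0.09 in RES, with 4 and 3 genes positive and 0 at an unadjusted p under 0.05. mt-Co3, for example, ran from 368 through 464 to 1223 CPM in CON, the highest being library 38, and from 313 through 396 to 584 CPM in SUS. In the B cell libraries the red-cell markers had means of 2699 CPM in CON, 5527 in SUS and 5309 in RES, the platelet markers 31.9, 65.9 and 42.2 CPM and the neutrophil markers 0.389, 4.04 and 1.34 CPM, and their part was not tested. In T cells the medians were −0.11 and −0.10, and mt-Rnr1 in RES stood at −0.23 (unadjusted p = 0.0159). None of the 36 tests of ratios within a library passed between conditions (smallest exact adjusted p = 0.343). The nearest was in B cells, where the log2 ratio of mt-Rnr2 to mt-Rnr1 was 0.15 lower in SUS than in RES (exact permutation p = 0.0130). Next came Ly6Clow RES against CON. There the log2 ratio of mt-Nd1 to mt-Rnr2 was 0.31 lower (exact permutation p = 0.0190) and that of mt-Rnr2 to mt-Rnr1 was 0.12 higher (exact permutation p = 0.0286).

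Did the difference between conditions depend on the cell type? In SUS vs. CON mice the change in Ly6Chigh monocytes exceeded that in B cells for mt-Co3 by 1.11 (SE 0.27, edgeR adjusted p = 0.00807) and for mt-Nd3 by 1.03 (SE 0.29, adjusted p = 0.0248), and 6.18% of all genes differed. Both genes had higher means in Ly6Chigh SUS and lower means in B cell SUS. Without library 38 mt-Co3 stood at 0.75 (adjusted p = 0.0431) and mt-Nd3 at 0.74 (adjusted p = 0.101), so only mt-Co3 still passed. mt-Nd3 also missed the threshold without Ly6Chigh SUS library 8 or Ly6Chigh CON library 16. For RES vs. CON against B cells 0 passed by edgeR and 2 by DESeq2 (1.65% of all genes), with mt-Co3 at 0.96 (adjusted p = 0.0529) and mt-Nd3 at 1.03 (adjusted p = 0.0547). Against Ly6Clow 0 passed in SUS (0.363%) and RES (0.0990%), and against T cells 0 in SUS (3.22%) and RES (0.713%), by edgeR and by DESeq2. At an unadjusted p under 0.05 these had 0, 0, 2 and 3 genes, and the comparisons with B cells 7 in SUS and 3 in RES. Of all 24248 genes, 3447, 2845, 4541 and 4289 had such a p, and 5137 and 4423 in the comparisons with B cells.

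The nuclear partners of these genes were described beside them, from lists of mitochondrial genes. Of 75 nuclear OXPHOS genes, 4 of which encode complex II (no mitochondrially encoded subunit), 74 were tested in Ly6Chigh monocytes, and 27 rose in SUS vs. CON mice with none falling, where 3.45% of all genes were called. The largest were Uqcrq of complex III (1.40) and Ndufb11 (1.30) and Ndufs6 (1.21) of complex I. By adjusted p alone 60 were higher, as were 1488 of all 16955 genes. Without the complex II genes 26 of 70 rose, with a median of 0.93. The median over the 74 was 0.91, that of the 13 mitochondrial protein genes −0.20 and that of all genes −0.05. Of the mitochondrial protein genes 5 had positive and 8 negative values, and with the red-cell covariate their median was 0.02 beside 0.05 for all genes. In RES 3 rose (Ndufa4 at 1.11, Uqcr10 at 1.10 and Cox7b at 1.04) with a median of 0.66, against −0.28 for the mitochondrial protein genes, where 0.997% of all genes were called. DESeq2 called 16 in SUS and 2 in RES. The count in SUS fell to 7 without library 14 and to 0 with the red-cell covariate, under which the median was 0.39. With that covariate 1 of all 16955 genes was called in SUS and 0 in RES. The count of nuclear OXPHOS genes in RES ran from 1 to 11 as libraries were left out. In the other cell types none was called by edgeR or DESeq2. The medians in SUS and RES were 0.26 and 0.33 in Ly6Clow monocytes, −0.03 and −0.06 in B cells and 0.10 and 0.02 in T cells. At an unadjusted p under 0.05 were 21 and 29 of 74 in Ly6Clow monocytes, beside 1857 and 1888 of all 19521 genes. In B cells 4 and 1 had such a p, beside 602 and 560 of all 17620 genes. In T cells 1 and 2 did, beside 906 and 775 of all 18860 genes.

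**Figure D5:**
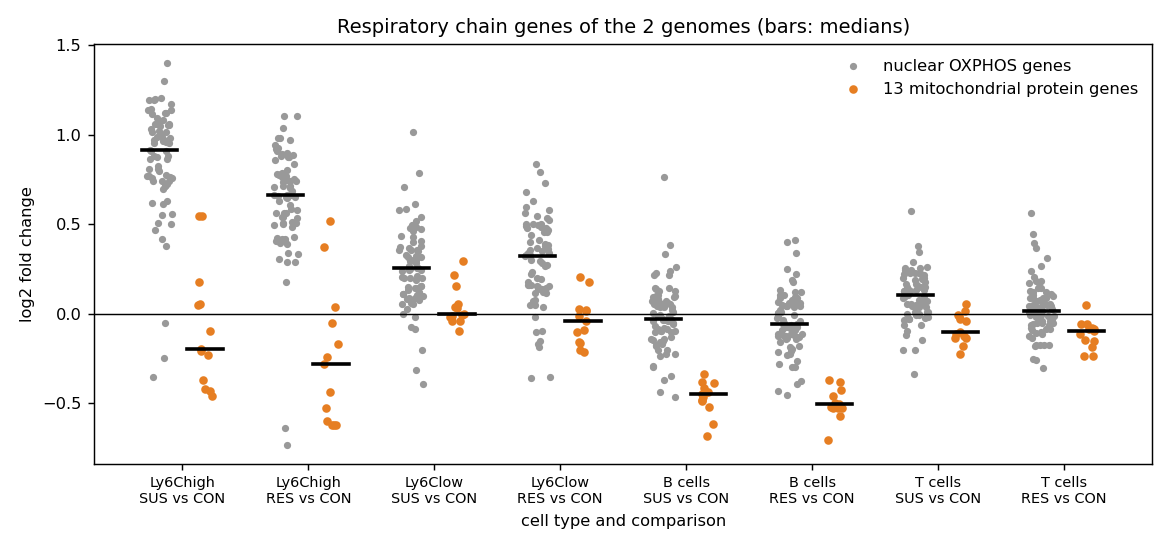
Log2 fold change in SUS vs. CON and RES vs. CON mice of nuclear OXPHOS genes (grey) and of the 13 mitochondrial protein genes (orange), by cell type, with medians in black. In Ly6Chigh monocytes the nuclear median is 0.91 in SUS and 0.66 in RES, and the mitochondrial median −0.20 and −0.28.

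Genes that make and process mitochondrial RNA were counted in the same way, beside 3.45% of all genes called in SUS and 0.997% in RES. Of all 16955 genes 4498 in SUS and 3599 in RES had an unadjusted p under 0.05. Of 11 genes of mitochondrial transcription 0 were called in Ly6Chigh SUS by edgeR (2 at an unadjusted p under 0.05) and by DESeq2, and Mterf4 (0.98) and Mrpl12 (0.94) passed by adjusted p alone. In RES 0 were called by edgeR (2 at an unadjusted p under 0.05) and 1 by DESeq2, Mterf1b, a transcription termination factor homolog (−2.27, adjusted p = 0.0278, edgeR −2.21, adjusted p = 0.117). Of 19 genes of RNA processing and decay 1 rose in SUS, Hsd17b10 (1.02, edgeR adjusted p = 0.0113), a subunit of the RNase P that cuts tRNA ends, and 1 fell in RES, Fastkd5 (−1.71, adjusted p = 0.031), which is needed to process mRNA ends that no tRNA borders. The call of Hsd17b10 was lost by DESeq2 (0.95) and without any 1 of Ly6Chigh CON libraries 1, 7 and 10 and SUS libraries 2, 8 and 14 (0.74 without library 14). That of Fastkd5 held by DESeq2 and was lost without any 1 of CON libraries 1, 4, 7 and 16 and RES libraries 9, 15 and 18. Of 17 mitochondrial tRNA synthetases 1 rose in SUS, Lars2 for leucine (1.32, edgeR adjusted p = 0.00231), a call that held by DESeq2 and was lost without SUS library 14 (0.86). With the red-cell covariate none of the 3 was called, with Hsd17b10 at 0.26, Lars2 at 0.28 and Fastkd5 at −1.47. Under it 1 of all 16955 genes was called in SUS and 0 in RES. Gm23935 and Gm26917 had a median share of 2.67% of counts in Ly6Chigh CON and 5.79% in SUS, and the part of such reads in Lars2 was not tested. Of 16 genes of mtDNA replication and 9 regulators of biogenesis 0 were called in SUS or RES by edgeR or DESeq2, with 2 and 2 at an unadjusted p under 0.05 in SUS and 2 and 3 in RES. In SUS the medians of the 5 lists lay between −0.17 and 0.22.

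The nuclear partners also differed between the cell types of CON mice. Ly6Chigh exceeded Ly6Clow in 15 of 74 nuclear OXPHOS genes (4.08% of all genes called higher), with a median of 0.67, beside 0.74 for the 13 mitochondrial protein genes. Ly6Clow was lower than B cells in 28 and higher in 1 (11.8% of all genes called lower, median −0.81), and lower than T cells in 19 (11.9%, median −0.72). The mitochondrial protein gene medians were −1.19 against B cells (−0.71 without library 38) and −1.14 against T cells. The nuclear medians include library 38. Between Ly6Chigh and lymphocytes none of the nuclear genes was called by edgeR, and 1 and 0 by DESeq2. At an unadjusted p under 0.05 were 28 and 23 of them, and 12155 and 11961 of all 24248 genes. The medians were −0.14 against B cells and 0.03 against T cells, beside mitochondrial protein gene medians of −0.49 (0.04 without library 38) and −0.42. The nuclear and mitochondrial medians thus had opposite signs for Ly6Chigh vs. T cells, and the difference between them was not tested.

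Some counts on the mitochondrial genes have a near-identical home in the nucleus. At chr1:24611535-24616197 (GRCm38) lie 7 annotated pseudogenes that copy part of the mitochondrial chromosome, and 5 were identical to it over the aligned stretch. The other 2 differed by 1 base each, shown in capitals, with positions counted from 1 at the 5′ end of the mitochondrial gene. The stretches are shown because, within the aligned part, only a read that covers such a base can tell the gene from its copy. How other reads were assigned was not given in the sources used here.
mt-Nd3, chrM:9459-9488, plus strand: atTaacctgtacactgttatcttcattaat
Gm28438, the same stretch with T3C: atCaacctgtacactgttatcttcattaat
mt-Co1, chrM:6390-6419, plus strand: ggaAttgttttatccaactcatcccttgac
Gm29216, the same stretch with A1066T: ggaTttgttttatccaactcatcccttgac

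The copies held 0.0410% to 0.184% of all counts. Of the sum of a gene and its copy, the copy took a mean of 44.6% for mt-Atp6 (39.9% to 47.8% over libraries), 24.9% for mt-Nd4l (16.4% to 32.4%), 20.1% for mt-Co3 (16.7% to 23.9%), 18.7% for mt-Nd3 (8.93% to 29.2%) and 18.5% for mt-Co2 (14.1% to 22.3%). It took 7.01% for mt-Nd4 and 4.15% for mt-Co1. The levels of these 7 genes are therefore uncertain where reads match both genomes. With the copies added, 5 genes in place of 6 were called between Ly6Chigh and Ly6Clow CON, the other CON counts were the same, and mt-Co3 in Ly6Chigh SUS stood at 0.53 (SE 0.18, edgeR adjusted p = 0.04996).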

How the data were processed

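RNA of leukocytes sorted from mouse blood was purified on RNeasy Micro columns and made into libraries with the SMARTer Stranded Total RNA-Seq Pico Input kit, which depletes rRNA cDNA. The authors aligned reads with HISAT2 to mm10, counted them per gene with HTSeq against an Ensembl annotation and deposited raw counts. The strand setting and the handling of multi-mapped or duplicate reads were not given in the sources used here. Genes were matched by identifier to GENCODE M21 (52403 of 52636). Groups were taken from the sample labels, and libraries 52 and 70 were left out.

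Counts were fitted with edgeR 4.0.16 (R 4.3.3, limma 3.58.1): filterByExpr, TMM, quasi-likelihood F tests with robust estimates, Benjamini-Hochberg adjustment over all genes tested, and calls where the adjusted p was under 0.05 with a log2 fold change beyond 1 in either direction. Conditions were compared within each cell type, and cell types and differences of changes in a fit of 12 group means. SE was computed as the size of the log2 fold change over √F. CPM are on TMM-scaled library sizes. Log2 count ratios (0.5 added to each count) were compared with exact two-sided permutation tests (scipy 1.17.1). Nuclear copies were found with blastn 2.17.0+ (identity of at least 90% over at least 60 bases). The scripts were tested on simulated counts with 200 changed genes. Alternatives included DESeq2 1.42.0, RLE scaling, no filter, library sizes without the mitochondrial genes, both libraries kept, each library left out and, added after seeing the data, the copies added to their genes, the nuclear OXPHOS counts under each setting and without complex II, and other settings for the named genes of mitochondrial RNA. The genes named were both rRNA genes, all protein genes, the 3 tRNA genes with the highest mean count, called tRNA genes, and up to 3 called genes per direction of each nuclear list. mt-Ts2, Mterf4, Mrpl12 and Mterf1b were named after their values were seen. The genes and lists were chosen with earlier results of these data known. Counts of 19769835 to 67038231 per library limit precision, reads carry no molecular identifiers and may be duplicates, and limits for a count of 0 cover counting error only.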

Additional observations from a re-analysis of the deposited data

Results flagged for a closer look

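Of 156 sets of values (13 measures in 12 groups), 16 held a library that stood apart from the rest of its group by Dixon's test at the 95% level, and chance alone gives about 1 in 20. B cell CON library 38 accounted for 8 of the 16. It had 56366 CPM of mt-Rnr1, where the other 5 libraries had 14897 to 26847 CPM, and 189633 CPM of mt-Rnr2, against 51433 to 75454 CPM. Its mRNAs were high as well, with 9578 CPM of mt-Co1 (others 2664 to 4690), 1223 CPM of mt-Co3 (others 368 to 588), 134 CPM of mt-Nd3 (others 48.9 to 68.6), 3302 CPM of mt-Nd5 (others 907 to 1285) and 602 CPM of mt-Nd6 (others 191.5 to 276). Its mt-Tp stood at 19.2 CPM, against 6.24 to 10.4 CPM.

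B cell SUS library 51 was low in mt-Nd5 (652 CPM, others 1152 to 1374) and in mt-Nd6 (121 CPM, others 219 to 269). Single T cell libraries were high in 1 gene each. T cell CON library 59 had 36603 CPM of mt-Rnr1 (others 27781 to 31074), T cell SUS library 69 had 5463 CPM of mt-Co1 (others 3852 to 4316) and T cell SUS library 60 had 88.8 CPM of mt-Nd3 (others 57.1 to 65.3). Ratios within a library stood apart in 3 cases. The log2 ratio of mt-Nd1 to mt-Rnr2 was −6.08 in Ly6Chigh SUS library 14 (others −6.57 to −6.42), that of mt-Rnr2 to mt-Rnr1 was 1.57 in Ly6Clow CON library 29 (others 1.45 to 1.47), and that of mt-Nd6 to mt-Nd5 was −2.50 in B cell RES library 49 (others −2.31 to −2.23).

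The SUS vs. CON change differed between Ly6Chigh monocytes and B cells in 2 genes by the interaction term (edgeR), mt-Co3 with a difference of 1.11 and mt-Nd3 with 1.03 on the log2 scale. Without library 38 these were 0.75 (adjusted p = 0.0431) and 0.74 (adjusted p = 0.101).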

How the results depend on the processing

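No paired analysis was possible because the labels name no mouse and replicate numbers are not shared between groups. No tested result reversed. Counted by adjusted p alone, without the limit on the fold change, more mitochondrial genes passed in several pairs. In Ly6Chigh vs. B cells 7, 2 and 2 passed in CON, SUS and RES, beside 10613, 10267 and 10240 of all 24248 genes. In Ly6Chigh vs. T cells 7, 6 and 7 passed, beside 10462, 11083 and 11256 of all genes. In Ly6Clow vs. B cells 9 passed in SUS and 10 in RES, beside 9830 and 8968 of all genes. In Ly6Clow vs. T cells 15 passed in SUS and 15 in RES, beside 9581 and 8742. B vs. T cells had 1 in SUS (6538 of all genes), and Ly6Chigh vs. Ly6Clow had 8 in RES (7868 of all genes). Without the low-count filter 2 genes were called in RES for Ly6Chigh vs. B cells, 1 for Ly6Chigh vs. T cells and 1 for B vs. T cells. With libraries 52 and 70 kept, 4 genes were called in RES for Ly6Clow vs. B cells. The RES vs. CON change differed between Ly6Chigh and B cells in 2 genes by DESeq2, in 2 with libraries 52 and 70 kept and in 1 with the chromosome 1 copies added. With Gm23935 and Gm26917 out of the total, the share differed by −3.94 percentage points between Ly6Chigh and T cells and by −9.53 between Ly6Clow and T cells of CON mice. The cause was not tested. As single libraries were left out, calls ran from 0 to 1 for Ly6Chigh vs. B cells and from 5 (without B cell library 38) to 11 for Ly6Clow vs. B cells, and 1 to 3 genes differed in their SUS vs. CON change between Ly6Chigh and B cells (1 without Ly6Chigh SUS library 8, Ly6Chigh CON library 16 or B cell CON library 38). The log2 ratio of mt-Rnr2 to mt-Rnr1 then ran in CON from −0.318 to −0.214 for Ly6Chigh vs. B cells, 0.215 to 0.319 for Ly6Chigh vs. T cells, −0.252 to −0.188 for Ly6Clow vs. B cells and 0.285 to 0.339 for Ly6Clow vs. T cells, and from −0.0995 to 0.0323 for SUS vs. RES in Ly6Chigh and −0.0344 to 0.0216 for SUS vs. CON in T cells. That of mt-Nd1 to mt-Rnr2 ran in CON from −1.05 to −0.933 for Ly6Chigh vs. Ly6Clow, 0.501 to 0.620 for Ly6Clow vs. B cells and 0.377 to 0.497 for Ly6Clow vs. T cells, from −0.00727 to 0.115 for SUS vs. CON in B cells, −0.0708 to 0.0377 for SUS vs. CON in T cells, and −0.142 to 0.00342 for RES vs. CON and −0.105 to 0.0406 for SUS vs. RES in Ly6Chigh. That of mt-Nd6 to mt-Nd5 ran from −0.110 to 0.00975 for Ly6Chigh vs. B cells and −0.0667 to 0.0528 for Ly6Chigh vs. T cells in CON, −0.0585 to 0.0248 for RES vs. CON in B cells, and −0.0554 to 0.0829 for SUS vs. CON and −0.130 to 0.00858 for RES vs. CON in Ly6Clow. Ranges that cross 0 belong to differences that did not pass their test. In Ly6Chigh RES mt-Nd2 (adjusted p = 0.0492), mt-Nd5 (adjusted p = 0.021) and mt-Nd4l (adjusted p = 0.0324) passed by adjusted p in an edgeR fit of only the CON and RES libraries, and mt-Co3 in SUS (adjusted p = 0.0478) with library sizes that left out the mitochondrial genes. Cell type pairs in SUS and RES, and differences of changes other than SUS vs. CON between Ly6Chigh and B cells, were not rerun with single libraries left out.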
